A study of Mus musculus with 18 samples.

Results

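Described here are the genes of transforming growth factor beta (TGF-beta) signalling that were named for this study, together with Gdf3, another ligand of the same superfamily, across 5 groups of sorted brain macrophages from mice. The 10 listed genes were Gdf3, Tgfb1, Tgfbr1, Tgfbr2, Smad2, Smad3, Smad7, Skil, Tgfbi and Lrrc33, chosen by name. They were looked up by symbol in a table of 13043 genes. The symbol Lrrc33 is not in that table and was left out. The other 9 were found, and all 9 were among the 10597 genes that passed the filter on low counts. RefSeq gives Lrrc33 as an older symbol of Nrros, which is in the table and is described as a further gene of the pathway, not as a member.

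All libraries came from lethally irradiated wild type C57BL6 recipients, sampled 32 weeks after transplantation of marrow that carried Ms4a3-Cre, an R26-TdTomato reporter and Cx3cr1-gfp. No group came from mice without irradiation, and the age of the mice is not given in the sources used here. Ms4a3-Cre acts in granulocyte-monocyte progenitors, so cells with both GFP and TdTomato were taken as monocyte-derived, cells with GFP alone as derived from haematopoietic stem cells (HSC) without passing through that stage, and cells without colour as host. The 5 groups were monocyte-derived leptomeningeal macrophages (LM; 4 libraries), HSC-derived LM (2 libraries), monocyte-derived microglia (4 libraries), HSC-derived microglia (4 libraries) and host microglia (4 libraries). Host microglia were wild type cells, and the 4 other groups all carried the donor alleles. Host cells were in the recipients at irradiation, while donor-derived cells came from the transplanted marrow. Comparisons with host microglia therefore differ in direct irradiation as well, and its part was not tested. Origin here stands for the reporter colours only. A collagenase step and a rinse of the outer surface gave the leptomeningeal cells, and microglia were taken from the digested rest of the brain.

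The mRNA was measured by bulk MARS-seq, a 3' method that counts unique molecular identifiers (UMIs). Total counts ran from 154727 to 2440234 per library. The 3 shallowest libraries were replicates 3 and 4 of HSC-derived microglia, with 264795 and 317872 counts, and replicate 2 of HSC-derived LM, with 154727. In these libraries a single count was worth between 3.91 and 7.70 CPM, the count scaled to library size, against 0.351 to 1.72 CPM in the others. The summed astrocyte, neuron and oligodendrocyte markers were 354 and 317 CPM in HSC-derived microglia replicates 3 and 4, against 86.4 and 71.5 CPM in replicates 1 and 2. In HSC-derived LM this sum was 539 CPM in replicate 2 and 232 CPM in replicate 1. In host microglia it was 224 to 299 CPM. The part of this difference in the results was not tested. The summed level of 12 homeostatic microglia markers was 3487 to 5432 CPM in monocyte-derived LM, 3058 to 3394 CPM in HSC-derived LM, 12730.5 to 13527 CPM in monocyte-derived microglia, 10555 to 12659 CPM in HSC-derived microglia and 26009 to 29749 CPM in host microglia. The sum of 12 border macrophage markers was 8408 to 15757 CPM over both LM groups and 4200 to 4865 CPM over both donor-derived microglia groups, against 833 to 995 CPM in host microglia, where Lyve1 and Cd209f had no count. The homeostatic markers include Cx3cr1, and all donor-derived groups carried Cx3cr1-gfp while host microglia were wild type. The part of this genotype difference in the sum was not tested. In bulk libraries, fewer cells of a type and less RNA per cell cannot be told apart.

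TGF-beta is secreted by macrophages and many other cells in a latent form, which integrins release at the cell surface. The active ligand binds the type II receptor Tgfbr2, which recruits and phosphorylates the type I receptor Tgfbr1. Tgfbr1 then phosphorylates Smad2 and Smad3, which enter the nucleus with Smad4 and bind short DNA elements. Smad7 and the nuclear protein encoded by Skil are induced by the pathway and restrain it. In the mouse brain, TGF-beta signalling is required for microglia to acquire and keep their homeostatic genes. Gdf3 signals through other receptors of the superfamily and is best known from early mouse development.

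Sequence upstream of the annotated gene start is shown for 3 members that passed the test in at least 1 comparison of donor-derived with host microglia: the receptor gene Tgfbr1, which was lower in HSC-derived microglia, the signal transducer gene Smad3, which was lower in both donor-derived groups, and the target gene Tgfbi, which was higher in both. The sequences are those of RefSeq for GRCm38.p6, 5′ to 3′ on the strand of the gene, up to 250 bases before the start and shortened to leave out annotated exons. Capitals mark the Smad-binding letters CAGAC, or GTCTG where they lie on the other strand.
Tgfbr1, chr4:47352972-47353221, plus strand: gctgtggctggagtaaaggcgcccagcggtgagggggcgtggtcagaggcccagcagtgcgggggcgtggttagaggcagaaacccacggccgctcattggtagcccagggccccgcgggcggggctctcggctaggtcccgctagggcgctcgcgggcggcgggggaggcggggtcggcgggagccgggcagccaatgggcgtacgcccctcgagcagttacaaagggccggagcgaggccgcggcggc
Smad3, chr9:63757995-63758244, minus strand: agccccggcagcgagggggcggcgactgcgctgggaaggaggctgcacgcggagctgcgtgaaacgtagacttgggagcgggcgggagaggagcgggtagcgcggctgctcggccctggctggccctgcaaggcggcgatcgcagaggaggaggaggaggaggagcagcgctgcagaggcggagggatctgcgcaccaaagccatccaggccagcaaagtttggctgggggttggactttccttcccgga
Tgfbi, chr13:56609336-56609522, plus strand: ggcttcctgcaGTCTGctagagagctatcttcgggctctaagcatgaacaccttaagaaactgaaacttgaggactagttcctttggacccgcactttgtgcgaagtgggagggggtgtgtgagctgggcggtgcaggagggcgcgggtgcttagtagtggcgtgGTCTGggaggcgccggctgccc
The Tgfbi window of 187 bases held 2 matches, both as GTCTG, and the Tgfbr1 and Smad3 windows of 250 bases held 0. The table has a second entry for Tgfbr1, inside the gene at chr4:47385966-47386215, which held 1 match, as did the Tgfbr2 window at chr9:116175364-116175613; neither is printed. Among all 32851 promoter windows in the RefSeq table, 34.2% of those of 187 bases and 42.2% of those of 250 bases held at least 1 match on either strand. The Smad palindrome GTCTAGAC was in 0.143% of all windows of 187 bases and 0.167% of those of 250 bases. The PU.1-type letters GAGGAAGT, or ACTTCCTC on the other strand, were in 1.62% and 2.44%. Neither was in the 3 windows shown. Promoter entries were matched for 5 of the 9 members, the 3 shown, Tgfb1 and Tgfbr2. A match describes the letters of the window only.

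Gdf3 (chr6:122605403-122610087, minus strand, GRCm38) encodes a secreted ligand of the TGF-beta superfamily. It was nearly at 0 in host microglia and counted at least once in all 14 donor-derived libraries. Its level was 42.2, 52.7, 49.7 and 22.2 CPM in the monocyte-derived LM libraries and 13.7 and 7.70 CPM in the HSC-derived LM libraries. It was 131, 122, 139 and 87.0 CPM in the monocyte-derived microglia libraries and 68.0, 60.5, 61.5 and 86.1 CPM in the HSC-derived microglia libraries, against 0.716, 0, 0.351 and 0 CPM in the host microglia libraries. No 2 groups overlapped: monocyte-derived microglia were highest, HSC-derived microglia next and host microglia lowest. The gap between the lowest monocyte-derived and the highest HSC-derived microglia library was small, 87.0 against 86.1 CPM. Group means were 41.7 ± 13.7 CPM in monocyte-derived LM (SD, n = 4), 10.7 ± 4.27 CPM in HSC-derived LM (SD, n = 2), 120.1 ± 23.1 CPM in monocyte-derived microglia (SD, n = 4), 69.0 ± 11.9 CPM in HSC-derived microglia (SD, n = 4) and 0.267 ± 0.342 CPM in host microglia (SD, n = 4).

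The counts behind the host level of Gdf3 were few. Monocyte-derived microglia held 684 Gdf3 counts and host microglia 2, a depth-corrected ratio of 483 with a 95% exact (Clopper-Pearson) interval of 133 to 3994. HSC-derived microglia held 126 counts, a ratio of 265 against the same 2 host counts, with an interval of 72.0 to 2216. Gdf3 passed the test in both comparisons, with an adjusted p of 5.69e-19 in monocyte-derived and 3.3e-15 in HSC-derived microglia. The size of these ratios rests on 2 host counts, and the intervals cover counting error only.

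Among donor-derived cells, Gdf3 was lower in LM than in microglia of the same origin. The log2 fold change of monocyte-derived LM against monocyte-derived microglia was -1.55 (SE 0.19, adjusted p = 5.47e-08), and that of HSC-derived LM against HSC-derived microglia was -2.42 (SE 0.49, adjusted p = 0.000766). The second value rests on 9 counts in HSC-derived LM, and without replicate 1 of that group it was -3.20 with an adjusted p of 0.0973. The interaction of origin and compartment, 0.87 on the log2 scale, did not pass the test (adjusted p = 0.741). Monocyte-derived microglia exceeded HSC-derived microglia by 0.83 on the log2 scale (SE 0.21, adjusted p = 0.0326). That call was lost without the 3 shallowest libraries, where the log2 fold change was 0.92 (adjusted p = 0.122), and when replicate 1, 2 or 3 of monocyte-derived or replicate 2, 3 or 4 of HSC-derived microglia was left out (adjusted p between 0.0679 and 0.111). Monocyte-derived LM against HSC-derived LM gave 1.70 (SE 0.50) with an adjusted p of 0.154, which passed only without replicate 4 of monocyte-derived LM (adjusted p = 0.0462).

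**Figure D1:**
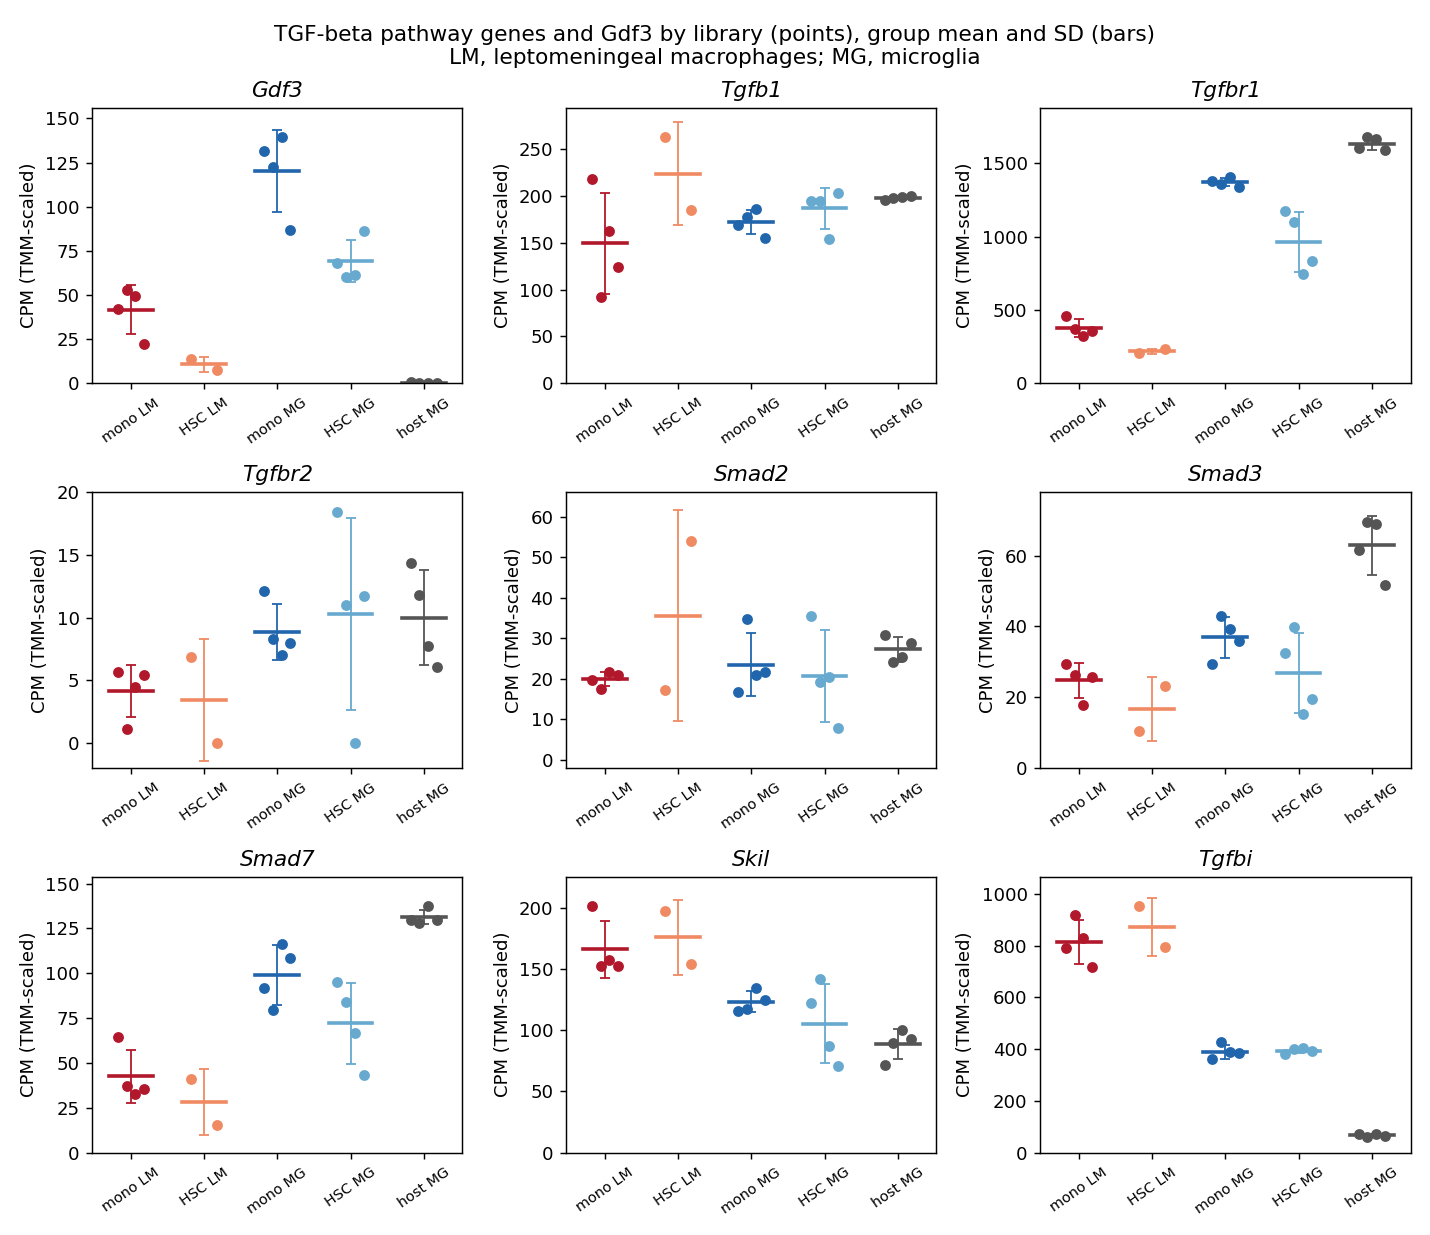
TMM-scaled CPM (vertical axes) of the 9 members in each library (points), with the group mean and SD (bars), for monocyte-derived LM, HSC-derived LM, monocyte-derived microglia, HSC-derived microglia and host microglia. Gdf3 was at 0.716 CPM or less in host microglia and Tgfbi at 70.9 CPM or less, while Tgfbr1, Smad3 and Smad7 had their highest group means in host microglia.

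Tgfb1 (chr7:25687002-25705077, plus strand) encodes the ligand TGF-beta 1. Its level was 219, 92.2, 163 and 124 CPM in monocyte-derived LM and 263 and 185 CPM in HSC-derived LM. It was 169, 178, 186 and 156 CPM in monocyte-derived microglia and 194, 195, 154 and 204 CPM in HSC-derived microglia, against 195, 198, 199 and 200.2 CPM in host microglia. The monocyte-derived LM libraries were spread more widely than all microglia, and donor-derived and host microglia overlapped or lay close together. Tgfb1 was called in none of the 7 comparisons by the edgeR quasi-likelihood test. At an unadjusted p below 0.05 it differed in 1, with a log2 fold change of -0.65 in monocyte-derived LM against HSC-derived LM (adjusted p = 0.286). Replicate 1 of monocyte-derived LM was the highest of its group, and without it this value was -0.88 (adjusted p = 0.0345), and monocyte-derived LM against monocyte-derived microglia gave -0.43 (adjusted p = 0.0304). That library also had the highest homeostatic microglia marker sum of its group, 5432 CPM against 3487 to 3819 CPM in the 3 others. The part of that difference in the result was not tested.

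The other ligands came from a list of 21 superfamily genes, of which 7 passed the filter with Gdf3 and Tgfb1 included. In monocyte-derived against host microglia 3 of the 7 were higher and 2 lower, and in HSC-derived against host microglia the counts were also 3 and 2. The median log2 fold changes were -0.10 and -0.07, against 0.01 and 0.00 over all tested genes, of which 30.2% and 29.4% were called. Bmp2, a bone morphogenetic protein, had 79 counts in monocyte-derived microglia and 23 in HSC-derived microglia and none in host microglia. Taking 3 counts over the host group, it was at least 37.2-fold higher in monocyte-derived and at least 32.3-fold higher in HSC-derived than in host microglia. Gdf9, a growth factor best known from the oocyte, was higher by 0.94 and 1.18 on the log2 scale in the same order of comparisons. Lefty1, which in embryos antagonises Nodal, averaged 16.9 ± 7.62 CPM in monocyte-derived and 6.94 ± 9.13 CPM in HSC-derived microglia, against 45.3 ± 5.69 CPM in host microglia (SD, n = 4 each), and was lower in both comparisons. Gdf15, a stress-induced cytokine, was lower by -1.19 and -1.36. In monocyte-derived LM against monocyte-derived microglia 1 of the 7 was higher, Bmp2 with a log2 fold change of 1.15 (SE 0.30), and 5 were lower. Of all tested genes 19% were higher and 16.3% lower there.

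Latent TGF-beta is held by binding proteins and released by integrins and proteases. Nrros, the gene once called Lrrc33, anchors latent TGF-beta 1 on myeloid cells and microglia. It was at 411, 429, 414 and 404 CPM in monocyte-derived LM and 472 and 300.4 CPM in HSC-derived LM. It was at 269, 243, 266 and 239 CPM in monocyte-derived microglia and 302, 256, 128 and 278 CPM in HSC-derived microglia, against 286, 295, 264 and 238 CPM in host microglia. The 3 microglia groups overlapped, and neither donor-derived group differed from host microglia past the threshold (log2 fold changes -0.09 and -0.12). Monocyte-derived LM lay above all microglia libraries. HSC-derived LM overlapped HSC-derived microglia, with replicate 2 of the LM at 300.4 CPM and replicate 1 of the microglia at 302 CPM. Nrros rose in monocyte-derived LM against monocyte-derived microglia (0.70, SE 0.16, adjusted p = 0.000628) and in HSC-derived LM against HSC-derived microglia (0.70, SE 0.21, adjusted p = 0.0329).

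Of 9 tested genes for latency and activation, Nrros included, 2 were higher and 4 lower in monocyte-derived than in host microglia, and 3 were higher and 5 lower in HSC-derived than in host microglia, with medians of -0.43 and -0.45; 30.2% and 29.4% of all genes were called. Mmp14, a membrane protease that can release TGF-beta, averaged 189.6 ± 9.14 CPM in monocyte-derived and 175 ± 35.6 CPM in HSC-derived microglia, against 41.8 ± 9.18 CPM in host microglia (SD, n = 4 each). Ltbp3, a latent TGF-beta binding protein, was at 23.0 ± 2.92 and 21.3 ± 7.23 CPM in the same order, against 3.77 ± 0.65 CPM in host microglia. Both passed the test in both comparisons, with log2 fold changes of 2.16 and 2.05 for Mmp14 and 2.61 and 2.63 for Ltbp3. Integrin subunits went the other way: Itgb3 fell by 2.41 and 3.46, and Itgb5 by 0.58 and 0.58, in monocyte-derived and in HSC-derived against host microglia. Itgb5, which pairs with the alpha V integrin, was also lower in LM than in microglia, by -0.85 (SE 0.14) in monocyte-derived and by -1.80 (SE 0.21) in HSC-derived cells. Itgb5 was in addition higher in monocyte-derived than in HSC-derived LM (0.96, SE 0.21, adjusted p = 0.0257). Mmp9, a secreted gelatinase that neutrophils also hold, had a log2 fold change of 6.33 (SE 0.44) in monocyte-derived LM against monocyte-derived microglia and of 5.60 (SE 0.57, adjusted p = 6.39e-06) in HSC-derived LM against HSC-derived microglia. The sum of 7 neutrophil markers was 1199 to 2776 CPM in monocyte-derived LM, against 119 to 186 CPM in monocyte-derived microglia. It was 49.8 to 100.1 CPM in HSC-derived LM, against 62.6 to 126 CPM in HSC-derived microglia. Single markers did not all follow the sum: S100a9 and Retnlg had no count in HSC-derived microglia but were counted in HSC-derived LM. Ngp went the other way. In host microglia the sum was 228 to 376 CPM, although S100a8, S100a9, Retnlg, Ngp and Camp had no count there. The sum is thus no measure of neutrophils alone. The part of neutrophils in the Mmp9 result was not tested.

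Tgfbr1 (chr4:47353222-47414931, plus strand) encodes the type I receptor kinase. Its level separated all 5 groups. It was 462, 373, 319 and 354 CPM in monocyte-derived LM and 208 and 231 CPM in HSC-derived LM. It was 1378, 1361, 1405 and 1338 CPM in monocyte-derived microglia and 1175, 1099, 748 and 838 CPM in HSC-derived microglia, against 1603, 1679, 1667 and 1588 CPM in host microglia. Host microglia were highest in every library, monocyte-derived microglia came next, and both LM groups were far below all microglia. In HSC-derived microglia the 2 lowest libraries were the 2 shallow ones.

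The test called Tgfbr1 lower in HSC-derived than in host microglia (log2 fold change -0.75, SE 0.16, adjusted p = 0.000483). Without the 3 shallowest libraries the value was -0.52 (adjusted p = 0.00252). Monocyte-derived against host microglia gave -0.25 (SE 0.16, adjusted p = 0.239), which was past the threshold only when these 2 groups were fitted alone (adjusted p = 0.0117). The difference between both origins, 0.50 in monocyte-derived against HSC-derived microglia, did not pass (adjusted p = 0.101), but it did with DESeq2 (adjusted p = 0.00864) and without replicate 1 (adjusted p = 0.0297) or 2 (adjusted p = 0.0489) of HSC-derived microglia. Against microglia of the same origin, Tgfbr1 was lower in LM, with log2 fold changes of -1.86 (SE 0.16, adjusted p = 6.19e-11) in monocyte-derived cells and -2.17 (SE 0.24, adjusted p = 4.94e-08) in HSC-derived cells. Monocyte-derived LM against HSC-derived LM gave 0.80 (adjusted p = 0.141), and 0.85 (adjusted p = 0.0308) without the 3 shallowest libraries, which leaves 1 HSC-derived LM library.

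Tgfbr2 (chr9:116084293-116175360, minus strand), which encodes the type II receptor that binds the ligand, had few counts. Its totals were 24 in monocyte-derived LM, 4 in HSC-derived LM, 51 in monocyte-derived microglia and 24 in HSC-derived microglia, against 77 in host microglia. Mean levels were 4.14 ± 2.09 CPM in monocyte-derived LM (SD, n = 4), 3.44 ± 4.86 CPM in HSC-derived LM (SD, n = 2), 8.84 ± 2.24 CPM in monocyte-derived microglia (SD, n = 4) and 10.3 ± 7.63 CPM in HSC-derived microglia (SD, n = 4), against 9.97 ± 3.78 CPM in host microglia (SD, n = 4). The 3 microglia groups overlapped, and 2 of the shallow libraries had no count, where 3 counts correspond to 15.4 and 23.1 CPM. Tgfbr2 was called in none of the 7 comparisons by edgeR. The value for monocyte-derived LM against monocyte-derived microglia was -1.01 (SE 0.43, adjusted p = 0.0656), which was past the threshold without the 3 shallowest libraries (adjusted p = 0.0287).

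The list of receptors and co-receptors also held Nptn, which encodes neuroplastin, an adhesion protein and not a receptor of this superfamily. Of the 10 tested genes of that list, 1 was higher and 3 lower in monocyte-derived than in host microglia. In HSC-derived against host microglia 1 was higher and 5 lower. Over all tested genes 30.2% and 29.4% were called in these comparisons. The medians were -0.40 and -0.49. Eng, the co-receptor endoglin, averaged 41.2 ± 5.01 CPM in monocyte-derived and 42.4 ± 8.42 CPM in HSC-derived microglia, against 196 ± 12.4 CPM in host microglia (SD, n = 4 each). The higher receptor was Acvrl1, also called ALK1, a type I receptor for bone morphogenetic proteins, with log2 fold changes of 1.41 (SE 0.17) and 1.63 (SE 0.19). Bmpr1a, another type I receptor for bone morphogenetic proteins, fell by 3.76 and 3.06, with 7 counts in monocyte-derived and 4 in HSC-derived microglia against 141 in host microglia. Acvr2b, a type II activin receptor, fell by 1.30 and 1.72.

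Smad2 is 1 of the pair of transcription factors that Tgfbr1 phosphorylates. Its mean level lay between 19.9 ± 1.79 CPM in monocyte-derived LM (SD, n = 4) and 35.5 ± 26.0 CPM in HSC-derived LM (SD, n = 2), and was 27.2 ± 3.09 CPM in host microglia (SD, n = 4). Its ranges overlapped between all donor-derived groups, and it was called in none of the 7 comparisons by edgeR. No unadjusted p of Smad2 was below 0.05.

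Smad3 (chr9:63646767-63757994, minus strand) encodes the partner of Smad2 that binds DNA directly. It was at 29.5, 26.4, 17.9 and 25.6 CPM in monocyte-derived LM and 10.3 and 23.1 CPM in HSC-derived LM. It was at 29.4, 43.0, 39.2 and 35.9 CPM in monocyte-derived microglia and 32.6, 39.9, 15.4 and 19.6 CPM in HSC-derived microglia, against 61.6, 69.6, 68.8 and 51.6 CPM in host microglia. Every donor-derived library was below every host library. HSC-derived LM lay below monocyte-derived microglia without overlap, and every other pair of donor-derived groups overlapped. Smad3 fell in monocyte-derived against host microglia by 0.79 (SE 0.17, adjusted p = 0.000491) and in HSC-derived against host microglia by 1.02 (SE 0.23, adjusted p = 0.000661). The shallow libraries, replicates 3 and 4 of HSC-derived microglia, held 3 and 5 counts of Smad3, and without the 3 shallowest libraries the second value was -0.81 (adjusted p = 0.00624). Smad3 was also lower in monocyte-derived LM than in monocyte-derived microglia (-0.57, SE 0.20, adjusted p = 0.0263), a call that was lost without replicate 2 or 3 of monocyte-derived microglia or replicate 3 of monocyte-derived LM. In HSC-derived LM against HSC-derived microglia the value was -1.27 (adjusted p = 0.102), and -1.80 (adjusted p = 0.0157) without the 3 shallowest libraries.

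Of 11 tested Smads and Smad partners, the members and Smad4 included, 0 were higher and 2 lower in monocyte-derived than in host microglia, and 0 were higher and 3 lower in HSC-derived than in host microglia. Over all tested genes 30.2% and 29.4% were called in either direction, and 15.1% and 13.1% were lower. The medians were -0.16 and -0.14. Beside Smad3 and Smad7, the gene called was Ldlrad4, which encodes a membrane protein that sequesters Smad2 and Smad3; it fell by 0.53 and 0.74. Smad1, which carries bone morphogenetic protein signals, averaged 13.1 ± 2.07 and 7.87 ± 5.79 CPM in monocyte-derived and HSC-derived microglia, against 15.7 ± 5.05 CPM in host microglia (SD, n = 4 each), and was not called. Smad5, a close relative of Smad1, was lower by -0.61 (SE 0.19, adjusted p = 0.011) in monocyte-derived LM against monocyte-derived microglia.

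Smad7 encodes the inhibitory Smad that blocks the type I receptor. It was at 64.6, 37.3, 32.5 and 35.7 CPM in monocyte-derived LM and 41.2 and 15.4 CPM in HSC-derived LM. It was at 91.6, 79.5, 116 and 109 CPM in monocyte-derived microglia and 94.9, 83.8, 66.6 and 43.1 CPM in HSC-derived microglia, against 129.6, 128, 137 and 129.9 CPM in host microglia. Every host library exceeded every donor-derived library, and LM lay below the microglia of their origin without overlap. Smad7 was lower in HSC-derived than in host microglia by -0.76 (SE 0.20, adjusted p = 0.00432), and by -0.56 (adjusted p = 0.0297) without the 3 shallowest libraries. Monocyte-derived against host microglia gave -0.41 (SE 0.17) with an adjusted p of 0.0692, and it was past the threshold without the 3 shallowest libraries (adjusted p = 0.0199) and with these 2 groups fitted alone (adjusted p = 0.00257). Smad7 fell by 1.21 (SE 0.19, adjusted p = 5.28e-06) in monocyte-derived LM against monocyte-derived microglia. In HSC-derived LM against HSC-derived microglia it fell by 1.13 (SE 0.37, adjusted p = 0.0462), with 26 counts behind the LM value. This call was lost with DESeq2 (adjusted p = 0.0637), without replicate 1 or 2 of HSC-derived microglia and without either HSC-derived LM library; without the first LM library the value was -2.41 (adjusted p = 0.108).

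Skil (chr3:31095058-31122577, plus strand) encodes SnoN, a co-repressor that binds Smads and that the pathway itself induces. It was at 201, 153, 157 and 152 CPM in monocyte-derived LM and 198 and 154 CPM in HSC-derived LM. It was at 116, 118, 135 and 125 CPM in monocyte-derived microglia and 122, 142, 87.1 and 70.4 CPM in HSC-derived microglia, against 71.6, 89.1, 100.4 and 92.4 CPM in host microglia. LM were above all microglia, monocyte-derived microglia were above host microglia, and HSC-derived microglia overlapped both other microglia groups. Skil rose by 0.47 (SE 0.15, adjusted p = 0.0183) in monocyte-derived against host microglia, a call that was lost without replicate 1 of host microglia (adjusted p = 0.0744) or replicate 3 of monocyte-derived microglia (adjusted p = 0.0673). HSC-derived against host microglia gave 0.34 (adjusted p = 0.14), and 0.56 (adjusted p = 0.00624) without the 3 shallowest libraries; it also passed without replicate 4 of HSC-derived microglia alone (adjusted p = 0.0391). Skil rose in monocyte-derived LM against monocyte-derived microglia by 0.43 (SE 0.15, adjusted p = 0.0242) and in HSC-derived LM against HSC-derived microglia by 0.70 (SE 0.23, adjusted p = 0.0472). The first of these calls was lost without replicate 1 of monocyte-derived LM (adjusted p = 0.101) or replicate 1, 2 or 4 of monocyte-derived microglia (adjusted p between 0.052 and 0.0762). The second was lost without the 3 shallowest libraries (adjusted p = 0.0742), and without replicate 1 of HSC-derived LM (adjusted p = 0.605) or replicate 1, 3 or 4 of HSC-derived microglia.

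Of 15 tested inhibitors and feedback genes, Smad7 and Skil included, 6 were higher and 3 lower in monocyte-derived than in host microglia, and 3 were higher and 4 lower in HSC-derived than in host microglia. Over all genes the shares called were 30.2% and 29.4%. The medians were 0.12 and 0.18. Pmepa1, a TGF-beta-induced membrane protein that restrains Smad signalling, averaged 179.97 ± 14.3 CPM in monocyte-derived and 256 ± 95.9 CPM in HSC-derived microglia, against 91.9 ± 2.08 CPM in host microglia (SD, n = 4 each). It was lower in LM than in microglia, by -1.14 (SE 0.18) in monocyte-derived and by -2.21 (SE 0.33) in HSC-derived cells. Nedd4l, a ubiquitin ligase that acts on activated Smads, was higher in both donor-derived microglia groups by 1.50 and 1.21. Smurf2, another ubiquitin ligase, was higher in monocyte-derived than in host microglia (0.71, SE 0.14). Its relative Smurf1 was lower in HSC-derived than in host microglia (-0.86, SE 0.23).

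Tgfbi (chr13:56609523-56639562, plus strand) encodes a secreted matrix protein that is named for its induction by TGF-beta and is abundant in many tissue macrophages. It was at 790.5, 918, 830.2 and 716 CPM in monocyte-derived LM and 952 and 793 CPM in HSC-derived LM. It was at 361, 427, 387 and 383 CPM in monocyte-derived microglia and 381, 399.9, 405 and 391 CPM in HSC-derived microglia, against 70.2, 61.8, 70.9 and 64.3 CPM in host microglia. The 3 levels did not overlap: LM were highest, donor-derived microglia between, and host microglia lowest, with both origins overlapping at each site. The log2 fold change against host microglia was 2.54 (SE 0.15, adjusted p = 4.76e-16) in monocyte-derived and 2.56 (SE 0.15, adjusted p = 1.32e-15) in HSC-derived microglia. LM exceeded microglia by 1.06 (SE 0.14, adjusted p = 1.26e-07) in monocyte-derived cells and by 1.16 (SE 0.17, adjusted p = 9.53e-06) in HSC-derived cells. The difference between origins was -0.02 (SE 0.14) in microglia and -0.11 (SE 0.17) in LM, neither past the threshold. Border macrophage markers, whose sums are given above, followed the same order of groups; their part in the Tgfbi result was not tested.

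**Figure D2:**
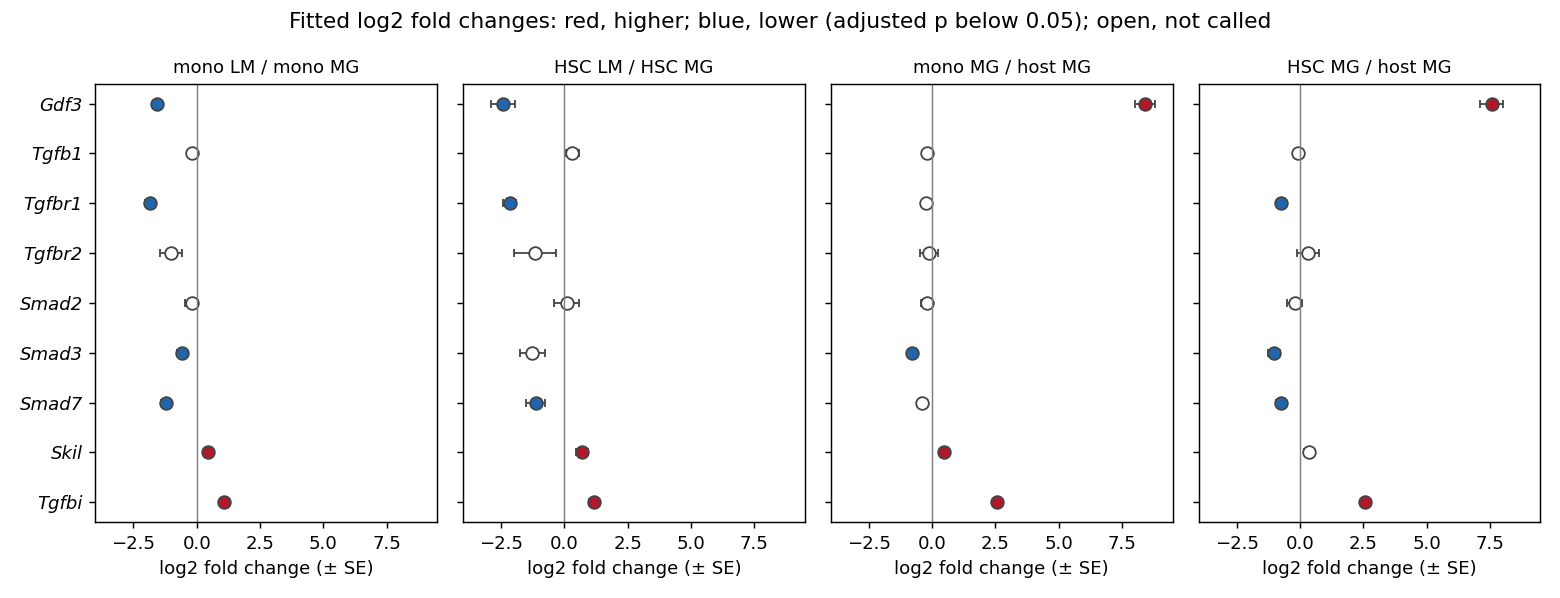
Log2 fold change (horizontal axis; points, with bars of 1 SE) of each member in LM against microglia of the same origin and in donor-derived against host microglia, from the edgeR fit of all 18 libraries. Against host microglia, Gdf3 and Tgfbi stand far to the right in both donor-derived groups, and Smad3 stands to the left in both.

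As a list, the members did not move one way. In monocyte-derived against host microglia 3 of 9 were higher, Gdf3, Tgfbi and Skil, and 1 was lower, Smad3; over all genes 30.2% were called, 15.1% higher and 15.1% lower. In HSC-derived against host microglia 2 of 9 were higher, Gdf3 and Tgfbi, and 3 lower, Tgfbr1, Smad3 and Smad7; over all genes 29.4% were called, 16.3% higher and 13.1% lower. Both comparisons share the 4 host libraries. The median log2 fold change of the members was -0.21 and -0.07, against 0.01 and 0.00 over all tested genes. Between monocyte-derived and HSC-derived microglia 1 of 9 was called, Gdf3, where 1.89% of all genes were called, 0.123% higher and 1.76% lower.

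In monocyte-derived LM against monocyte-derived microglia 2 of 9 members were higher, Skil and Tgfbi, and 4 lower, Gdf3, Tgfbr1, Smad3 and Smad7, where 35.3% of all genes were called, 19% higher and 16.3% lower. In HSC-derived LM against HSC-derived microglia 2 were higher, again Skil and Tgfbi, and 3 lower, Gdf3, Tgfbr1 and Smad7, where 9.72% of all genes were called, 5.75% higher and 3.97% lower. The median of the members was -0.57 and -1.13, against -0.04 and -0.06 over all tested genes. Between monocyte-derived and HSC-derived LM 0 of 9 were called by edgeR, where 0.302% of all genes were called; 3 of 9 had an unadjusted p below 0.05, and DESeq2 called 1, Tgfbr1 (0.78, adjusted p = 0.0037), among the 3 members to which it gave an adjusted p. For the interaction of origin and compartment 0 of 9 were called by edgeR and 0 had an unadjusted p below 0.05, where 0.0566% of all genes were called; DESeq2 also called 0.

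Over all pathway lists, 108 genes beside the members were listed, 79 were in the table and 69 were tested. In monocyte-derived against host microglia 11 of the 69 were higher and 28 lower, with a median of -0.28. In HSC-derived against host microglia 11 were higher and 30 lower, with a median of -0.24. Of the 69, 20 were microglial genes that depend on TGF-beta, a list described below. In both comparisons 0 of these 20 were higher and 15 lower. Of all tested genes 30.2% and 29.4% were called in these comparisons. None of the 69 was called between monocyte-derived and HSC-derived microglia by edgeR, where 1.89% of all genes were called, and 4 had an unadjusted p below 0.05. In monocyte-derived LM against monocyte-derived microglia 13 were higher and 32 lower, where 19% of all genes were higher and 16.3% lower. In HSC-derived LM against HSC-derived microglia 5 were higher and 19 lower, where 5.75% of all genes were higher and 3.97% lower. In the first of these LM comparisons 2 of the same 20 genes were higher and 16 lower. In the second 1 was higher and 15 lower. Without the 3 shallowest libraries 71 genes beside the members were tested. Of these 71, 14 were higher and 29 lower in monocyte-derived and 11 higher and 24 lower in HSC-derived than in host microglia.

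Of 13 tested general TGF-beta targets, Tgfbi, Skil and Smad7 included, 5 were higher and 2 lower in monocyte-derived than in host microglia, and 4 were higher and 3 lower in HSC-derived than in host microglia, with medians of 0.12 and 0.27 and with 30.2% and 29.4% of all genes called. Cdkn1a, a cell cycle inhibitor that is also a p53 target, averaged 186 ± 10.4 CPM in monocyte-derived and 179 ± 103 CPM in HSC-derived microglia, against 2075 ± 265 CPM in host microglia (SD, n = 4 each). Bhlhe40, a transcriptional repressor, rose by 1.67 and 2.07 in the same order. In monocyte-derived LM against monocyte-derived microglia 8 of the 13 were higher and 3 lower, with a median of 0.66, where 35.3% of all genes were called, 19% higher and 16.3% lower. Marker sums of other cells were also higher there: those of T and NK cells were 631 to 1135 CPM in monocyte-derived LM, against 148 to 188 CPM in monocyte-derived microglia, and those of monocytes 826 to 1217 CPM, against 146 to 218 CPM. The part of these and of the neutrophil markers in the count was not tested. Id3, an inhibitor of basic helix-loop-helix factors, rose by 3.66 (SE 0.32) there, and Junb, a subunit of AP-1, by 2.38 (SE 0.28). In HSC-derived LM against HSC-derived microglia 4 were higher and 3 lower, with a median of 0.02 and 9.72% of all genes called.

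The 22 tested microglial genes known to depend on TGF-beta in mice, among them the members Tgfbr1 and Smad3, were lower in most cases. In monocyte-derived against host microglia 0 were higher and 16 lower, with a median log2 fold change of -0.82. In HSC-derived against host microglia 0 were higher and 17 lower, with a median of -0.92. Of all tested genes 15.1% and 13.1% were lower. Like the other lists, this one was written with earlier results of these data known. The count is therefore a description and no test of the list. Without the 3 shallowest libraries, an alternative for the lists that was chosen after seeing the data, the counts were 1 higher and 16 lower, and 0 higher and 16 lower. Many genes of this list are also markers of homeostatic microglia, whose sums differed between the groups as given above, and the part of that difference was not tested.

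Sall1, a transcription factor that maintains microglial identity, was at 31.4 ± 8.59 CPM in monocyte-derived and 19.8 ± 12.9 CPM in HSC-derived microglia, against 326 ± 10.7 CPM in host microglia (SD, n = 4 each), and fell by 3.38 and 3.75. Slc2a5, a fructose transporter, fell by 3.32 and 3.22, and Tmem119, a microglial surface protein, by 1.30 and 1.53. Pros1, which encodes protein S, a ligand of phagocytic receptors, fell by 1.48 and 1.40. P2ry12, the purinergic receptor of homeostatic microglia, fell by 1.57 and 1.91. In monocyte-derived LM against monocyte-derived microglia 2 genes of this list were higher and 18 lower (median -1.22). In HSC-derived LM against HSC-derived microglia 1 was higher and 16 lower (median -1.42). Of all tested genes 19% were higher and 16.3% lower in the first comparison, and 5.75% higher and 3.97% lower in the second. Gas6, a ligand related to protein S, went the other way in LM, higher by 2.18 (SE 0.14) in monocyte-derived and by 2.38 (SE 0.18) in HSC-derived cells.

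**Figure D3:**
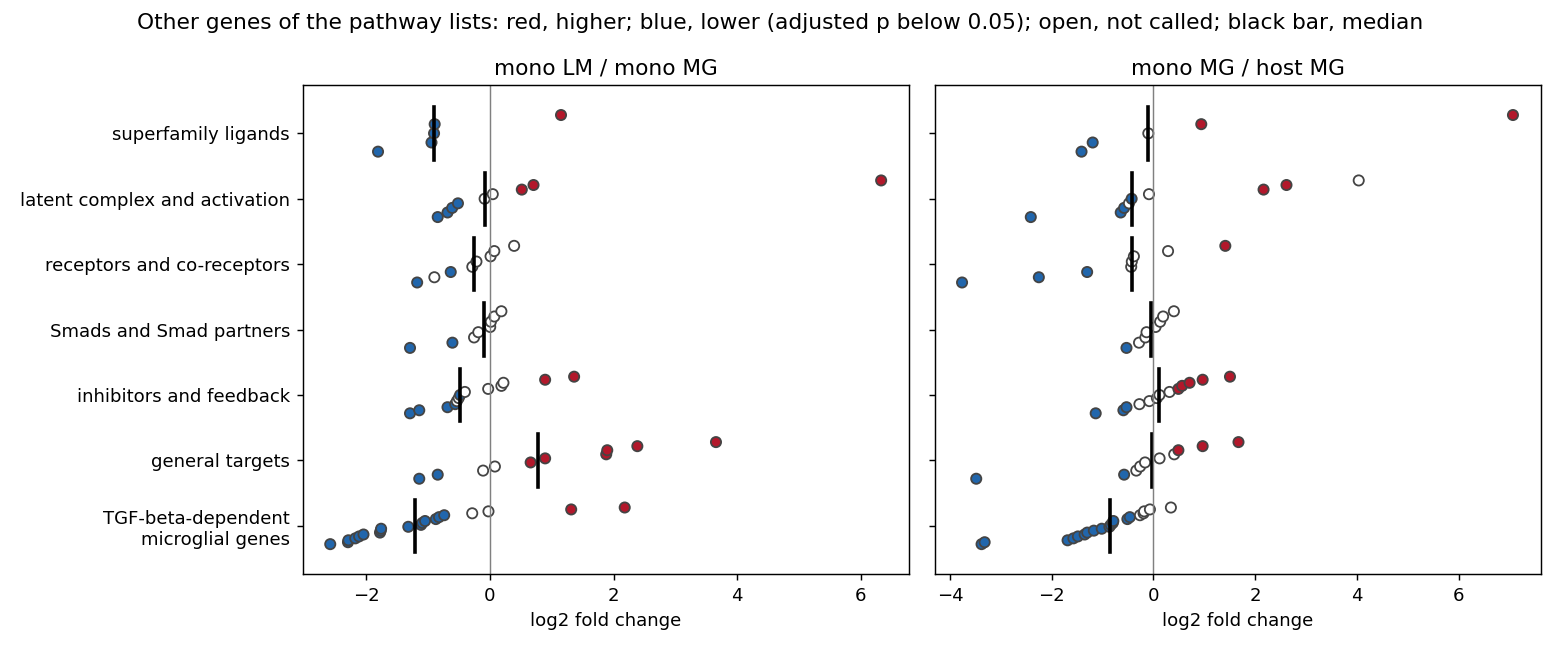
Log2 fold change of the tested genes of each pathway list other than members (points) in monocyte-derived LM against monocyte-derived microglia (left) and monocyte-derived against host microglia (right), with the median of each list (bar). Bmp2 and Mmp9, with no count in host microglia, are drawn there at their fitted values, which are no bounds. The genes that depend on TGF-beta in microglia lie mostly below 0, while ligands, receptors and general targets spread to both sides.

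The genes with the pattern most like that of Gdf3 were sought among all tested genes by the Pearson correlation of log2(CPM + 1) over the 18 libraries. They were Cxcr4, a chemokine receptor (r = 0.97), Ctse, an aspartic protease (0.967), Tmem176a, a membrane protein (0.963), Cxcl16, a chemokine (0.951), and Apobec1, an RNA-editing enzyme (0.95). All 18 libraries share the contrast of donor-derived with host cells. Over the 14 donor-derived libraries alone the correlations were 0.846, 0.842, 0.789, 0.689 and 0.77 in the same order.

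Cxcr4 averaged 64.2 ± 5.03 CPM in monocyte-derived LM (n = 4), 22.7 ± 21.3 CPM in HSC-derived LM (n = 2), 93.9 ± 7.93 CPM in monocyte-derived microglia (n = 4) and 81.8 ± 2.99 CPM in HSC-derived microglia (n = 4), against 2.01 ± 0.525 CPM in host microglia (n = 4; all SD). Ctse averaged 152 ± 3.29 CPM in monocyte-derived and 164 ± 55.7 CPM in HSC-derived microglia, against 0.837 ± 0.178 CPM in host microglia (SD, n = 4 each). Cxcr4 was highest in monocyte-derived microglia, as was Gdf3, while the mean of Ctse was highest in HSC-derived microglia. Cxcl16 averaged 424 ± 27.5 CPM in monocyte-derived LM and 391 ± 36.4 CPM in monocyte-derived microglia (SD, n = 4 each), so its mean was not lower in LM of that origin. It averaged 289 ± 49.8 CPM in HSC-derived LM (SD, n = 2) and 434 ± 31.4 CPM in HSC-derived microglia (SD, n = 4), where its mean was lower in LM, as was that of Gdf3. The test called Cxcl16 in neither comparison (adjusted p = 0.544 in monocyte-derived and 0.0609 in HSC-derived cells).

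**Figure D4:**
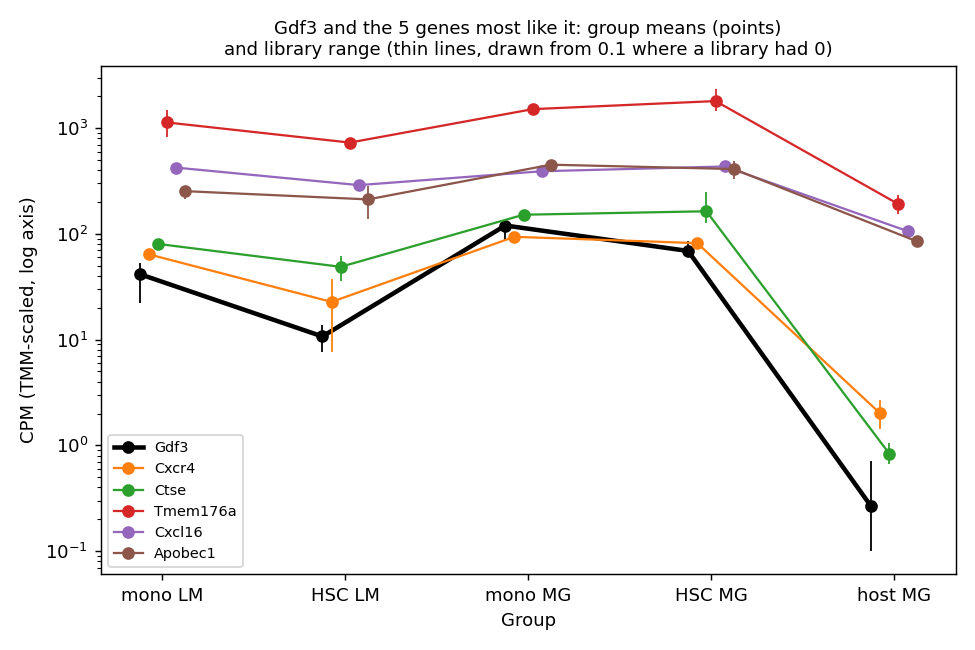
Group means of Gdf3 and of the 5 genes most like it (points, joined by lines as a guide; TMM-scaled CPM on a log axis), with the range over libraries (thin lines). All 6 genes have their lowest mean in host microglia, and Gdf3 falls furthest, to 0.267 CPM.

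Among the members, Tgfbi had a Pearson correlation of log2(CPM + 1) over the 18 libraries of -0.78 with Tgfbr1, -0.80 with Smad3 and -0.76 with Smad7, and of -0.40 with Tgfbr2 and -0.19 with Smad2. Its correlation was 0.74 with Gdf3 and 0.74 with Skil, and -0.29 with Tgfb1. These points share 5 groups, and the values describe differences between groups more than between libraries of a group.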

How the data were processed

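The authors deposited a table of UMI counts per gene with scaled copies that were not used; the unscaled counts are whole numbers whose totals differ between libraries. The build is mm10, per the submitters' processing notes; which aligner, counter or filter was used is not given in the sources used here. Of 20 count columns, 2 could be tied to no described sample and were left aside. The filter was filterByExpr in edgeR 4.0.16 with a minimum count of 10 (limma 3.58.1, R 4.3.3). CPM are scaled by TMM. The 18 libraries were fitted together in 1 robust quasi-likelihood model with a coefficient per group, and Benjamini-Hochberg adjustment ran over 10597 genes with a threshold of 0.05; tests were two-sided. Between libraries of a group, the common biological variation (BCV) was 0.161. The method was tested on simulated data. A gene past the threshold is called higher or lower.

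Whether replicates are separate mice is not stated per the labels, so p-values measure only the spread between these samples, which may be technical. The members and gene lists were chosen with earlier results of these data known. All members are named. From each pathway list, up to 4 other genes with the smallest p in the comparisons with host microglia, and up to 2 in each other comparison, could be named; for likeness to Gdf3, the 5 genes of highest correlation. Intervals are exact (Clopper-Pearson, 95%) and, like floors of 3 counts, cover counting error only. Gene positions are those of GENCODE vM21 and promoters those of RefSeq, both on GRCm38, the build also called mm10. Alternatives were DESeq2 1.42.0, its size factors, no filter, a replicate block, a non-robust fit, only the groups compared, and leaving out libraries.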

Additional observations from a re-analysis of the deposited data

Results flagged for a closer look

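In replicate 1 of monocyte-derived LM, Smad7 stood at 64.6 CPM, far above the 3 other libraries of its group (32.5 to 37.3 CPM). Skil stood at 201 CPM in the same library, against 152 to 157 CPM in the 3 others. These were 2 of 36 groups of 4 libraries examined over the 9 members, and chance flags about 1 in 20. The same library had the highest Tgfbr1, 462 CPM, and the highest Tgfb1, 219 CPM, of its group. Its homeostatic microglia marker sum was 5432 CPM, against 3487 to 3819 CPM in the others, and its neutrophil marker sum was 1199 CPM, the lowest of the group. The part of these marker levels was not tested.

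The change of Gdf3 against host microglia differed between both donor origins, by 0.83 on the log2 scale, monocyte-derived minus HSC-derived (edgeR, adjusted p = 0.0326). The lowest monocyte-derived library was at 87.0 CPM and the highest HSC-derived library at 86.1 CPM. The call was lost with DESeq2 (adjusted p = 0.0612), with only these groups fitted (0.0847), without the 3 shallowest libraries (0.122) and with replicate 1, 2 or 3 of monocyte-derived or 2, 3 or 4 of HSC-derived microglia left out.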

How the results depend on the processing

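Over the alternatives, 948 values of a member in a comparison were recomputed. Of these, 896 kept their side of the threshold, 36 lost a call, 16 gained one and 0 called values changed sign. Values that were not called could change direction. With 1 library left out, Tgfbr2 in monocyte-derived against host microglia ran from -0.35 to 0.07 on the log2 scale. In 46 of 63 combinations of member and comparison no alternative changed the call. The number of members called in monocyte-derived against HSC-derived microglia was 0 in place of 1 without the 3 shallowest libraries and when only these groups were fitted, and 0 to 2 with 1 library left out. DESeq2 also called 1 member there, Tgfbr1 in place of Gdf3. In monocyte-derived LM against HSC-derived LM it was 1 in place of 0 without the 3 shallowest libraries and with DESeq2, and 0 to 1 with 1 library left out. In HSC-derived LM against HSC-derived microglia it was 3 in place of 5 without the filter, with the non-robust fit and with only these groups, and 2 to 4 with 1 library left out. The cause was not tested.

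Counts over all genes moved further. In monocyte-derived against HSC-derived microglia 200 genes were called, but 50 without the 3 shallowest libraries, 535 with DESeq2, 20 with only these groups and 31 to 555 with 1 library left out. In monocyte-derived against HSC-derived LM 32 were called, but 72, 78, 16 and 12 to 90 under the same alternatives in that order. HSC-derived against host microglia gave 2068 in place of 3114 with only these groups, and HSC-derived LM against HSC-derived microglia 205 in place of 1030, and 366 without replicate 1 of HSC-derived LM. The interaction gave 6, but 49 with DESeq2, 1 with the non-robust fit, 1 with only these groups and 0 to 40 with 1 library left out.

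Deviations of libraries with the same replicate number correlated at -0.31 to 0.31, and those with different numbers also at -0.31 to 0.31. Both extremes came from HSC-derived LM against HSC-derived microglia, where deviations of 2 LM libraries from their mean are mirror images. In all other comparisons the values lay between -0.07 and 0.08, for the same and for different numbers. This check cannot decide whether groups were sorted from the same mice, since the labels do not name the mice. With the replicate block the members called were 4, 5, 1, 0, 6, 4 and 0, in the order monocyte-derived and HSC-derived against host microglia, monocyte-derived against HSC-derived microglia, monocyte-derived against HSC-derived LM, LM against microglia within the monocyte and the HSC origin, and the interaction. Depth limits HSC-derived LM most, where 3 counts were worth 5.15 and 23.1 CPM.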

Other observations

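Apobec1, among the 5 genes most like Gdf3, is also its nearest annotated neighbour; this was seen after the values were known. Apobec1 (chr6:122577792-122602444, minus strand) lies on the same strand as Gdf3, and its start is 2958 bases from the near edge of Gdf3. It averaged 254 ± 27.0 CPM in monocyte-derived LM (n = 4), 212 ± 103 CPM in HSC-derived LM (n = 2), 452 ± 41.1 CPM in monocyte-derived microglia (n = 4) and 411 ± 73.7 CPM in HSC-derived microglia (n = 4), against 85.3 ± 6.68 CPM in host microglia (n = 4; all SD). The test called Apobec1 higher in monocyte-derived than in host microglia (log2 fold change 2.40, adjusted p = 3.6e-14) and in HSC-derived than in host microglia (2.29, adjusted p = 3.85e-13). It was lower in LM than in microglia of the same origin, by -0.83 (adjusted p = 5.42e-05) in monocyte-derived and by -1.14 (adjusted p = 0.000993) in HSC-derived cells. On the other side of Gdf3, 16322 bases away and on the plus strand, Dppa3 had 21 counts in monocyte-derived LM, 2 in HSC-derived LM, 21 in monocyte-derived microglia and 3 in HSC-derived microglia, against 0 in host microglia. Dppa3 did not pass the filter on low counts and was not tested.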
